A study of Mus musculus with 6 samples.

Results

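The Zbtb genes, which encode transcription factors with a BTB domain and C2H2 zinc fingers, were examined in mouse LSK cells with and without Tet1. The members are the genes whose symbol starts with Zbtb and that have a probe set assigned to 1 symbol, without Zbtb33, and each gene was read from its brightest probe set, by the mean of the 6 arrays. This gave 39 of the 18194 genes measured, read by 85 probe sets. Of the 39, 38 encode proteins of the family and 1, Zbtb11os1, is a long non-coding RNA gene named for its place opposite Zbtb11. LSK cells lack mature lineage markers and carry Sca-1 and Kit on their surface, and blood stem cells and early progenitors are found among them. They were flow sorted from bone marrow of mice aged 6 months, of a strain given as CD57BL/6. The groups are Tet1 KO and WT, each of 3 samples, and each sample was read on 1 Affymetrix array. The labels do not state how the Tet1 allele was made or whether the samples of a group are separate mice, so the p-values reflect only how these samples vary, which may be technical.

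In a Zbtb protein the zinc fingers bind a DNA sequence, while the BTB domain forms dimers and recruits corepressors such as BCOR with histone deacetylases, or the CUL3 ubiquitin ligase. Most members that have been studied repress transcription. Several direct blood cell fate, among them PLZF (Zbtb16), LRF (Zbtb7a), ThPOK (Zbtb7b) and MIZ1 (Zbtb17). Others bind methylated CpG (Zbtb4 and Zbtb38) or are required for DNA methylation at repeats (Zbtb24), which touches on the substrate of Tet1, an enzyme that oxidises 5-methylcytosine. Messenger RNA alone was measured here, not methylation or binding.

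Values are log2 probe set intensities, in which a difference of 1 is a doubling, and a level belongs to its own probe set and does not rank genes. Tet1 was lower in Tet1 KO at all 4 of its probe sets without overlap between groups, by 0.93 to 1.68 on the log2 scale, and where these probe sets lie relative to the altered part of the gene is not given. In the limma fit over all probe sets their unadjusted p was 0.0017 to 0.010. Their adjusted p was 0.685, so Tet1 itself did not pass adjustment. All 6 measured LSK markers, Kit among them, read above background on all arrays, while Ly6a was not analysed here. Tet1 KO replicate 2 stood apart from the other arrays. Its brightest bacterial control read 4.87, against at most 4.37 elsewhere, and it received an array weight of 0.236 where the others received 0.898 to 1.88. It was the lowest or the highest of the 6 arrays for 63.1% of all genes. Results are therefore also given without it.

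Nearly all members were detected in LSK cells. The guide to background was the brightest of 27 bacterial control probe sets on the same array. In WT 37 of the 39 members read above it on all 3 arrays, against 68.6% of all genes, and in Tet1 KO 36 did, against 64.4%. Averaging all probe sets of each gene left 34 such members in WT. Zbtb8b was at or below the control on all 6 arrays, from 3.35 to 3.84. Zbtb7c exceeded the control on 1 of 3 WT arrays and on all 3 Tet1 KO arrays. Zbtb4 and Zbtb37 exceeded it on all WT arrays but on 2 of 3 in Tet1 KO. There were 24 members more than 1 above the control on all 6 arrays, among them Zbtb1, Zbtb7a, Zbtb14, Zbtb18, Zbtb20, Zbtb38 and Zbtb44.

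**Figure D1:**
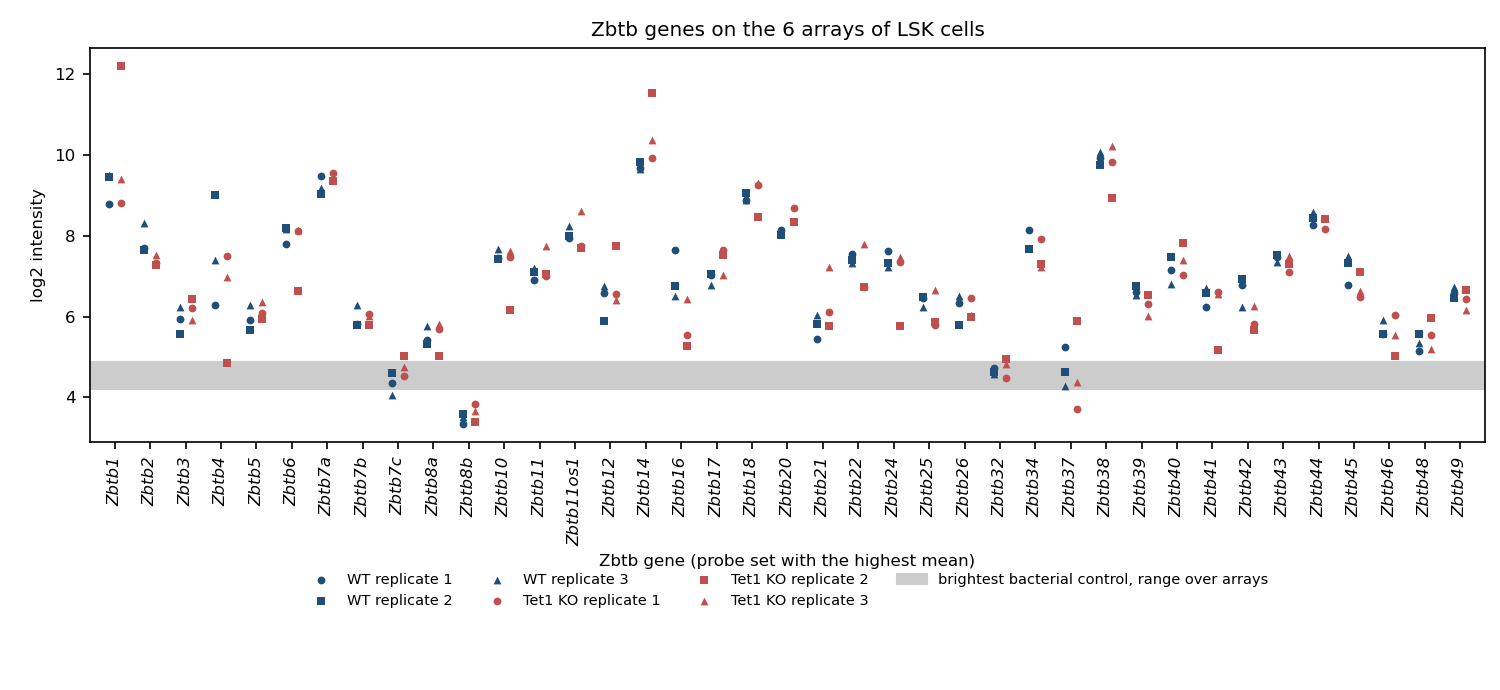
Log2 intensity (vertical axis) of the 39 Zbtb genes (horizontal axis) on each array, with WT points in blue, Tet1 KO points in red and one symbol shape per replicate number, over a grey band that spans the brightest bacterial control of the 6 arrays. Zbtb8b lies below the band on all arrays, and Zbtb1 shows 1 Tet1 KO array at 12.19 above all others.

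No member passed the test of Tet1 KO against WT after adjustment over all genes. The limma count at a Benjamini-Hochberg adjusted p under 0.05 was 0 of 39, and over all genes it was likewise 0, or 0%. The lowest adjusted p among members was 0.642. Tet1 was among the genes not called, so a change of its size can go uncalled in this test. Without adjustment, 3 members, or 7.69%, had a p under 0.05, beside 7.21% of all genes. They were Zbtb16 and Zbtb42 on the lower side, where 3.96% of all genes were, and Zbtb20 on the higher side, where 3.25% were. For 5 members, or 12.8%, the arrays of both groups did not overlap, beside 17.2% of all genes. Zbtb14 and Zbtb20 were higher, beside 10.3% of all genes, and Zbtb2, Zbtb16 and Zbtb39 lower, beside 6.89%. The share at an unadjusted p was thus near that of all genes and the share without overlap below it. With cyclic loess normalization 4 members, Zbtb17 and the same 3, had an unadjusted p under 0.05, beside 5.74% of all genes, and 6 had no overlap, beside 13.4%. The first count was 1 without WT replicate 1, or 2.56% beside 3.57% of all genes, and 5 without Tet1 KO replicate 3, or 12.8% beside 9.2%. The second rose with smaller groups for members and for all genes. It was 9 without WT replicate 1, or 23.1% beside 24%. Leaving out Tet1 KO replicates 1, 2 and 3 in turn gave 9, 10 and 11, or 23.1%, 25.6% and 28.2% beside 32.8%, 26.7% and 31.7% of all genes.

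Of the 39 members, 16 were higher and 23 lower in Tet1 KO, while 56.5% of all genes were higher. The median difference was -0.05, beside 0.05 for all genes, and single differences ran from -1.22 for Zbtb16 to 0.90 for Zbtb1. The median was 0.063 without Tet1 KO replicate 2, 0.028 without WT replicate 3 and 0.053 with array weights, so its direction was not stable. A difference of at least 0.5 was seen in 8 members, or 20.5%, beside 12.8% of all genes. In families that share a domain with Zbtb proteins, it was seen in 21.2% of Klhl genes and 24.5% of Zfp genes. The 95% interval of the difference lay between -1 and 1 for 23 members. For the other 16 a doubling or a halving was not excluded.

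The differences of all genes went with their level, so each member was set beside all genes of like level, with the 18194 genes cut into 10 bins of equal size by mean level. The median difference of all genes was between 0.10 and 0.18 in bins 1 to 5, where probe sets are dim, and between -0.14 and -0.07 in bins 6 to 10. There were 12 members in bin 6, with a median of -0.12 beside -0.07 for all genes there. Another 9 were in bin 7, with -0.34 beside -0.12, and 4 in bin 8, with -0.39 beside -0.12. Zbtb1, Zbtb7a, Zbtb14 and Zbtb38 were in bin 10, with a median of 0.56 beside -0.10. All these medians include Tet1 KO replicate 2. Without that array the 4 members of bin 10 were at -0.13, 0.26, 0.43 and 0.11. In bin 8 Zbtb2, Zbtb6, Zbtb11os1 and Zbtb34 were then at -0.46, 0.08, 0.13 and -0.27. The 9 members of bin 7 then ran from -0.64 for Zbtb45 to 0.37 for Zbtb17. Bin medians of all genes without that array are not given, so these values have no like-level comparison. With all arrays and relative to the median of its own bin, 18 members were higher and 21 lower, with a median of -0.04.

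**Figure D2:**
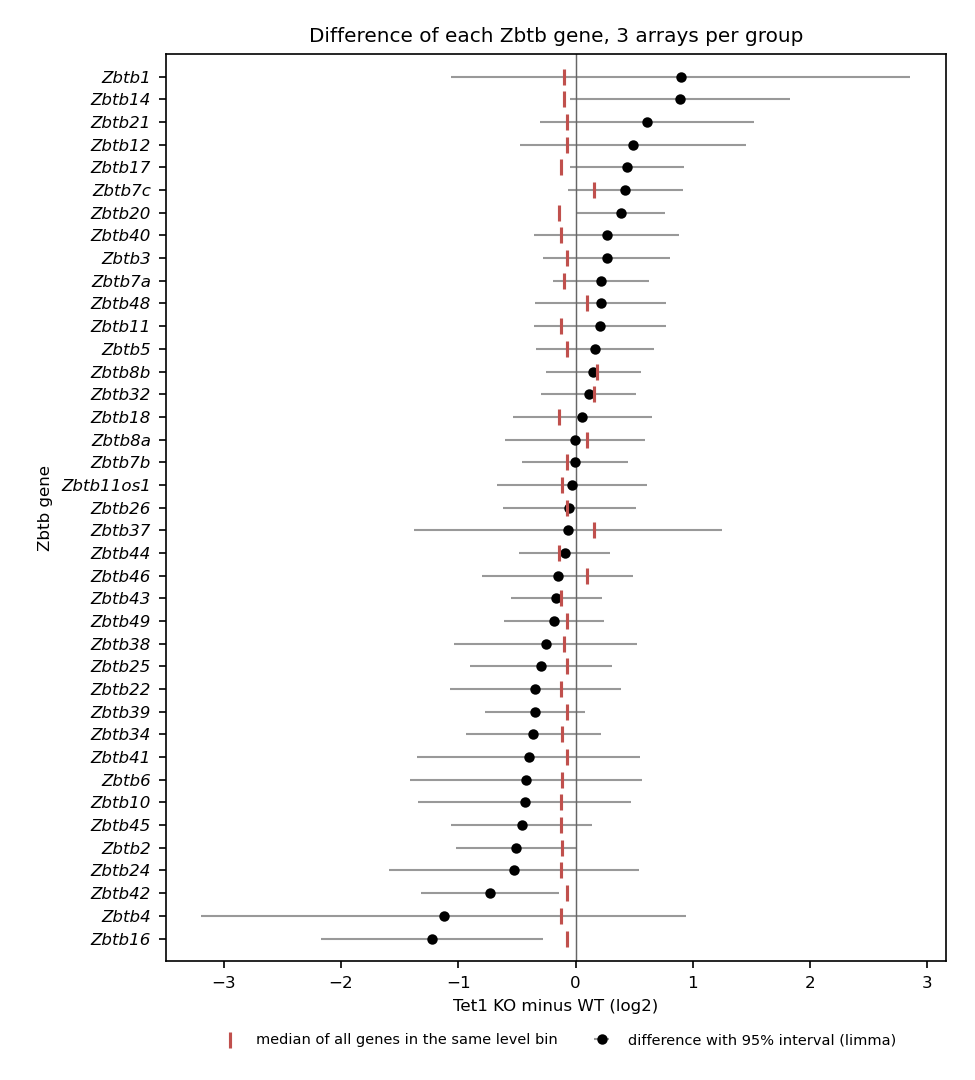
Tet1 KO minus WT (log2, horizontal axis) for each of the 39 Zbtb genes, with the 95% interval from limma on 3 arrays per group and a red tick for the median of all genes in the same level bin. The points run from -1.22 for Zbtb16 to 0.90 for Zbtb1, and the intervals of Zbtb16, Zbtb42 and Zbtb20 do not cross 0.

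Zbtb16 had the largest difference and the smallest p of the family. It encodes PLZF, a repressor that directs innate-like T cells, acts in stem and progenitor cells and is fused to the retinoic acid receptor in a form of promyelocytic leukaemia. It read 7.66, 6.75 and 6.51 on WT replicates 1, 2 and 3 and 5.54, 5.28 and 6.43 on the Tet1 KO replicates. All Tet1 KO arrays were below all WT arrays, but Tet1 KO replicate 3 lay just under the lowest WT array. The difference was -1.22 (SE 0.40), or 2.34-fold lower, with an unadjusted limma p of 0.018 and an adjusted p of 0.642. The probe set used has the suffix _x_at, given to sets whose probes may also match other transcripts. A second Zbtb16 probe set gave -1.05, from 6.84 ± 0.56 to 5.79 ± 0.86 (SD, n = 3 each), and the groups overlapped there. The third gave -0.04, with 6.21 ± 0.19 in WT and 6.17 ± 0.21 in Tet1 KO. The mean of the 3 probe sets gave -0.77. The unadjusted limma p was above 0.05 without Tet1 KO replicate 2 (-0.99, p of 0.056), without Tet1 KO replicate 1 (-1.12, p of 0.056) and without WT replicate 1 (-0.88, p of 0.054). In bulk RNA, fewer cells with Zbtb16 and less of its RNA per cell cannot be told apart. Of 5 measured markers of T and NK cells, which also use this gene, 3, with Cd3e among them, read at or below the control on all arrays. Their mean level was 4.13 to 4.21 on WT arrays and 4.26 to 4.65 on Tet1 KO arrays. Their part in the Zbtb16 difference was not tested.

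The members that bind methylated DNA did not differ beyond the spread of their arrays. Zbtb4 read 6.30, 9.01 and 7.41 in WT and 7.49, 4.86 and 6.99 in Tet1 KO. Its WT arrays alone spanned more than the difference of -1.12 (SE 0.87), and without Tet1 KO replicate 2 the difference was -0.33. The other Zbtb4 probe sets gave -0.46, -0.17 and 0.25, and the SD of the WT arrays was 0.12 at the first of these against 1.37 at the brightest. Zbtb38 read 9.93, 9.75 and 10.06 in WT and 9.82, 8.93 and 10.23 in Tet1 KO. Its difference of -0.25 (SE 0.33) turned to 0.11 without Tet1 KO replicate 2. Zbtb24, mutated in a human syndrome of immunodeficiency with lost methylation at centromeric repeats, showed the same arrangement. It read 7.62, 7.34 and 7.22 in WT and 7.34, 5.77 and 7.49 in Tet1 KO. The difference was -0.53 (SE 0.45), and 0.02 without Tet1 KO replicate 2.

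Zbtb7a, Zbtb7b, Zbtb17 and Zbtb32 also act in lymphocytes, and for each the groups overlapped. Zbtb7a, whose product LRF favours B over T cell fate by opposing Notch signals and also acts in red cells, read 9.49, 9.03 and 9.19 in WT and 9.55, 9.37 and 9.44 in Tet1 KO. The difference was 0.22, with a 95% interval from -0.19 to 0.63. Its other probe sets gave 0.17 and -0.15. Zbtb7b, whose product ThPOK sets the CD4 helper lineage, differed by -0.005 (SE 0.19), with an interval from -0.46 to 0.45. Zbtb17 encodes MIZ1, a partner of MYC that is needed for early B and T cells. It read 7.04, 7.05 and 6.79 in WT and 7.64, 7.54 and 7.03 in Tet1 KO. Tet1 KO replicates 1 and 2 lay above all WT arrays and replicate 3 among them, with a difference of 0.44 (SE 0.20) and an unadjusted limma p of 0.070. Zbtb32, a repressor of activated lymphocytes, was near the control level and differed by 0.11 (SE 0.17).

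Zbtb20 was the member on the higher side with the smallest p. It encodes a repressor that acts in plasma cells, liver and brain. It read 8.13, 8.01 and 8.11 in WT and 8.70, 8.33 and 8.37 in Tet1 KO, so that all Tet1 KO arrays were above all WT arrays. The difference was 0.38 (SE 0.16), or 1.31-fold, with an unadjusted limma p of 0.049 and an adjusted p of 0.642. It was 0.45 without Tet1 KO replicate 2, with an unadjusted limma p of 0.027. With any other array left out the p was 0.058 to 0.139. The other 8 Zbtb20 probe sets did not show it, with 0.12, 0.10 and 0.09 on the higher side and -0.02, -0.03, -0.24, -0.30 and -0.67 on the lower side. The mean of all 9 was -0.06, which turns the direction.

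Zbtb46 marks conventional dendritic cells and their precursors. It read 5.58, 5.58 and 5.91 in WT and 6.03, 5.02 and 5.55 in Tet1 KO, with overlap and a difference of -0.15 (SE 0.27). Of 3 measured dendritic cell markers, Itgax and Xcr1 were at or below the control on all arrays, and Siglech, a marker of plasmacytoid cells, was above it on all arrays. Zbtb18, known from brain development, differed by 0.06 (SE 0.25), and Zbtb11, an essential factor that acts in mitochondrial function, by 0.21 (SE 0.24). Both groups overlapped for each.

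Zbtb1 and Zbtb25 are neighbours read in opposite directions, and they differed on opposite sides. Zbtb1, which lymphocytes need to develop, read 8.78, 9.44 and 9.51 in WT and 8.82, 12.19 and 9.40 in Tet1 KO. The value on Tet1 KO replicate 2 was 2.69 above the next array, while the other Tet1 KO arrays lay within the WT range. The difference was 0.90 (SE 0.83) with all arrays and -0.13 without that array. The other Zbtb1 probe set read 5.07 on Tet1 KO replicate 2, the lowest of its 6 arrays, and differed by -0.02. Zbtb25 read 6.46, 6.48 and 6.24 in WT and 5.78, 5.86 and 6.65 in Tet1 KO, differing by -0.30 (SE 0.25). Its second probe set read 6.42, 6.52 and 6.33 in WT and 5.77, 4.59 and 6.03 in Tet1 KO. All Tet1 KO arrays were below all WT arrays there, with a difference of -0.96 and an unadjusted limma p of 0.037 in the fit over all probe sets.

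Zbtb42, known from skeletal muscle, was the second member of the lower side. It has 1 probe set, which read 6.78, 6.93 and 6.23 in WT and 5.82, 5.67 and 6.25 in Tet1 KO. Tet1 KO replicate 3 lay just above WT replicate 3, so the groups overlapped. The difference was -0.73 (SE 0.25), or 1.66-fold lower, with an unadjusted limma p of 0.022 and an adjusted p of 0.642. The unadjusted limma p was above 0.05 without Tet1 KO replicate 1 (0.060) or 2 (0.058), without WT replicate 1 (0.070) or 2 (0.079) and with the replicate block (0.053), while the difference stayed between -0.93 and -0.59 with an array left out.

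The promoters of 4 of these genes are shown. Zbtb1 and Zbtb25 share a divergent locus. Zbtb42 and Zbtb20, the members with a window that had an unadjusted limma p under 0.05, differ in their number of CpG dinucleotides. Each is the stretch of 250 bases before the first start listed by RefSeq for GRCm38.p6, read 5′ to 3′ on the strand of the gene, with CpG in capitals. Zbtb1 lies at chr12:76370270-76370519 on the plus strand, Zbtb25 at chr12:76369561-76369810 on the minus strand, Zbtb42 at chr12:112678590-112678839 on the plus strand and Zbtb20 at chr16:43247034-43247283 on the plus strand.
Zbtb1: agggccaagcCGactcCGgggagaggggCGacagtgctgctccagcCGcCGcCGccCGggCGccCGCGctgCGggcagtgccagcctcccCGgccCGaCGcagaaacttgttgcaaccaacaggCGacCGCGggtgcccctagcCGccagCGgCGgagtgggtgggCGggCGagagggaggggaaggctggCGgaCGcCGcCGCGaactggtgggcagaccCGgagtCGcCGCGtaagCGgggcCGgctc
Zbtb25: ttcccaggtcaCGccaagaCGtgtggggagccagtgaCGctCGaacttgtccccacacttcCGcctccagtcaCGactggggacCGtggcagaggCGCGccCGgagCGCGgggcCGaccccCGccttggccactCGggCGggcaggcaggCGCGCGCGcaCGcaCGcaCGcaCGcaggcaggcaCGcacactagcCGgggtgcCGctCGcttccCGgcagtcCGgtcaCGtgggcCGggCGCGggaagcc
Zbtb42: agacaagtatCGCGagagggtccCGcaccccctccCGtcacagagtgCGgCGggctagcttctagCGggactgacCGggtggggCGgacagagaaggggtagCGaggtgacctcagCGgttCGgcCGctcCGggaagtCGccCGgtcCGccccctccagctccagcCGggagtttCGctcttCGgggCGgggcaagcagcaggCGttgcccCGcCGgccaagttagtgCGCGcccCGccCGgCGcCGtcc
Zbtb20: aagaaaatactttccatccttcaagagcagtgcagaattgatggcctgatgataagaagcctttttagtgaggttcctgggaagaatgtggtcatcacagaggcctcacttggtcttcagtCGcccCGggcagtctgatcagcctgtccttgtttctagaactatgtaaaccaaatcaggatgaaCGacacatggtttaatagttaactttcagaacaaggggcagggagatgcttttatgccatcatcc
The starts of Zbtb1 and Zbtb25 are 960 bases apart. The windows hold 33 CpG for Zbtb1, 34 for Zbtb25 and 30 for Zbtb42, against 3 for Zbtb20. A link between these counts and the differences of the genes was not tested.

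Most members had CpG-rich promoters. Of the 39, 34 matched an entry of the RefSeq table, and their windows held a median of 19.5 CpG, beside 13 for the 14453 measured genes with an entry. A ratio of observed to expected CpG above 0.6 with over 50% G and C was met by 23 of 34, or 67.6%, beside 49.2%. The range ran from 0 CpG in Zbtb46 to 47 in Zbtb18. The TATA box sequence TATAAA, searched on both strands, was in 1 window, that of Zbtb43, or 2.94%, beside 9.02%. No methylation was measured, so these are features of the sequence alone.

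Zbtb2 and Zbtb14 also separated the groups at their brightest probe set, but their other probe sets did not follow. Zbtb2, a repressor that acts in the p53 pathway, read 7.69, 7.65 and 8.30 in WT and 7.32, 7.29 and 7.53 in Tet1 KO. Its difference was -0.51 (SE 0.22), with an unadjusted limma p of 0.052, while its other probe set gave 0.38 and the mean of both gave -0.06. Zbtb14, a factor of GC-rich promoters, read 9.67, 9.83 and 9.66 in WT and 9.92, 11.54 and 10.37 in Tet1 KO. All Tet1 KO arrays were above all WT arrays, with a difference of 0.89 (SE 0.39) and an unadjusted limma p of 0.059, or 0.43 without Tet1 KO replicate 2. That probe set carries the suffix _x_at, which the manufacturer gives to sets whose probes may also match other transcripts. The other 3 Zbtb14 probe sets gave -0.13, -0.88 and -0.13, and for the one at -0.88 all Tet1 KO arrays were below all WT arrays. The mean of the 4 was -0.06. Zbtb16 and Zbtb3 were also read by sets with this suffix.

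Over the family, probe sets of a gene often disagreed. Of 25 members with more than 1 probe set, 10 had differences of 1 sign in all of them and 15 did not. Of the 85 probe sets, 5, or 5.88%, had an unadjusted limma p under 0.05, beside 6.82% of all 45101 probe sets, with 1 higher and 4 lower. The groups did not overlap for 8, or 9.41%, beside 16.3%. Besides those of Zbtb16, Zbtb25 and Zbtb42, the lower side held 1 of the probe sets of Zbtb41, at -0.67. The higher one belonged to Zbtb21, at 0.99, where the WT arrays read 4.97, 4.78 and 4.51 and the Tet1 KO arrays 6.44, 5.34 and 5.45. The brightest Zbtb21 probe set gave 0.61 (SE 0.38) and the third gave -0.14. There were 8 probe sets at or below the control on all arrays.

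**Figure D3:**
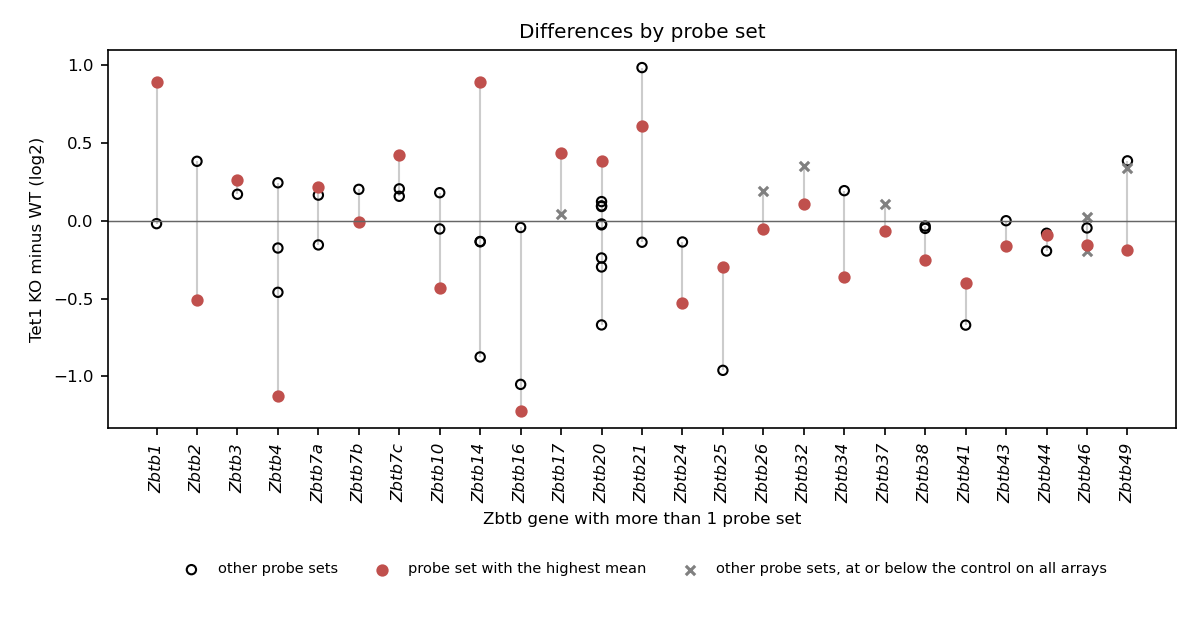
Tet1 KO minus WT (log2, vertical axis) for each probe set of the 25 Zbtb genes that have more than 1, with the brightest probe set in red, the others as open circles and those at or below the bacterial control on all arrays as grey crosses. Zbtb14 spans both directions, from -0.88 to 0.89, while 2 of the 3 Zbtb16 probe sets lie near -1.

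Many of the larger differences in the family rested on Tet1 KO replicate 2. It was the lowest or the highest of the 6 arrays for 23 of the 39 members, or 59.0%, beside 63.1% of all genes. It lay more than 1 from the WT mean for 10 members, or 25.6%, beside 11.8% of all genes. The 6 on the lower side were Zbtb4, Zbtb6, Zbtb10, Zbtb16, Zbtb24 and Zbtb41, and the 4 on the higher side were Zbtb1, Zbtb12, Zbtb14 and Zbtb37. Zbtb6 read 7.80, 8.19 and 8.17 in WT and 8.13, 6.63 and 8.14 in Tet1 KO. Zbtb10, whose product binds telomeric repeats, read 7.46, 7.42 and 7.67 in WT and 7.46, 6.16 and 7.62 in Tet1 KO. Zbtb41 read 6.23, 6.58 and 6.72 in WT and 6.61, 5.16 and 6.55 in Tet1 KO. In these 3 genes the other Tet1 KO arrays lay within the WT range, and without replicate 2 the differences of -0.42, -0.43 and -0.40 became 0.08, 0.03 and 0.07. Zbtb12 read 7.76 on that array and 6.56 and 6.40 on the other Tet1 KO arrays, and its difference of 0.49 became 0.06.

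Without Tet1 KO replicate 2, 11 of the 39 differences changed sign and 18 were at most 0.5 times as large or changed sign. The count at an unadjusted limma p under 0.05 was then 4, beside 8.29% of all genes, and the adjusted count stayed at 0. The groups did not overlap for 10 members, or 25.6%, beside 26.7% of all genes with 2 Tet1 KO arrays. The 4 were Zbtb20 at 0.45 (unadjusted limma p of 0.027), Zbtb21 at 0.91 (p of 0.046), Zbtb39 at -0.47 (p of 0.024) and Zbtb45 at -0.64 (p of 0.036). Zbtb16 and Zbtb42 were not among them, at p of 0.056 and 0.058. The spread within Tet1 KO was larger than within WT for 28 members and smaller for 11, and it was larger for 72.9% of all genes.

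**Figure D4:**
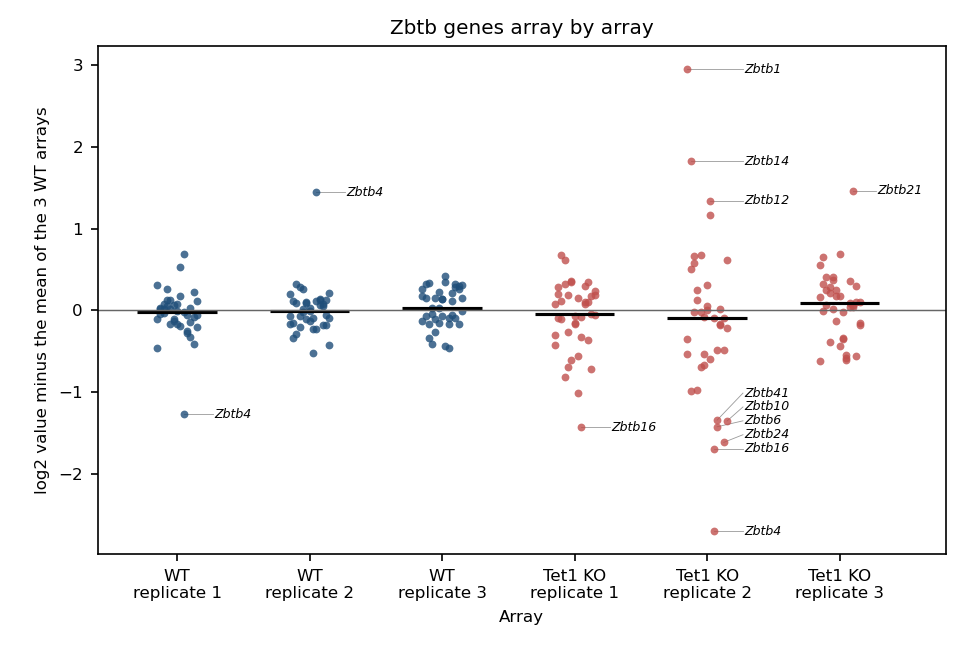
Log2 value of each Zbtb gene minus its mean over the 3 WT arrays (vertical axis), array by array (horizontal axis), with black bars for the median of the 39 genes. The medians lie between -0.10 and 0.09, and Tet1 KO replicate 2 has the widest scatter, with 10 genes more than 1 from the WT mean.

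**Figure D5:**
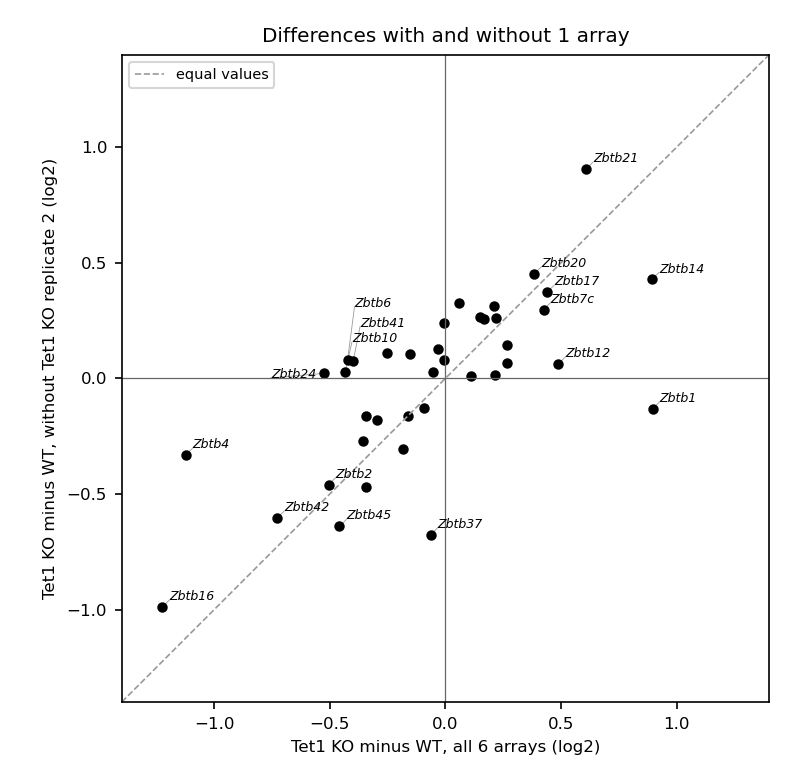
Tet1 KO minus WT (log2) of the 39 Zbtb genes with all arrays (horizontal axis) and without Tet1 KO replicate 2 (vertical axis), with a dashed line of equal values. Zbtb16, Zbtb42 and Zbtb20 lie near the line, while Zbtb1, at 0.90 and -0.13, and Zbtb24, at -0.53 and 0.02, lie far from it.

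None of the remaining members had an unadjusted limma p under 0.05. Zbtb39 read 6.61, 6.76 and 6.55 in WT and 6.32, 6.54 and 6.03 in Tet1 KO, just without overlap, with a difference of -0.35 (SE 0.18) and an unadjusted limma p of 0.096. Zbtb45 differed by -0.46 (SE 0.25), Zbtb34 by -0.36 (SE 0.24) and Zbtb22 by -0.34 (SE 0.31). Zbtb7c, at the edge of detection, differed by 0.42 (SE 0.21). Zbtb40 differed by 0.27 and Zbtb3 by 0.27, and Zbtb48, which binds telomeres, by 0.21. Zbtb5, Zbtb8b, Zbtb8a, Zbtb26, Zbtb37, Zbtb43, Zbtb44, Zbtb49 and Zbtb11os1 differed by -0.18 to 0.17. Of these, Zbtb37 had a wide spread, with 3.71, 5.88 and 4.37 on the Tet1 KO arrays. Zbtb11os1 and Zbtb11 both read highest on Tet1 KO replicate 3, at 8.61 and 7.76.

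Besides Zbtb1 and Zbtb25, other members lie next to each other among protein-coding genes in the RefSeq order. Zbtb34 and Zbtb43 differed by -0.36 and -0.16, Zbtb6 and Zbtb26 by -0.42 and -0.05, and Zbtb8a and Zbtb8b by -0.005 and 0.15. Without Tet1 KO replicate 2 Zbtb1 was at -0.13 and Zbtb25 at -0.18, and Zbtb34 at -0.27 and Zbtb43 at -0.16. Zbtb6 was then at 0.08 and Zbtb26 at 0.03, and Zbtb8a at 0.24 and Zbtb8b at 0.26. Zbtb8b was at or below the control on all arrays. Neighbouring genes in general were not compared, so a tendency of neighbours to differ alike was not tested.

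Related genes, partners and targets of the family also had none past the adjusted test. All 8 BTB zinc finger genes that carry other symbols, such as Bcl6, the regulator of germinal centres, were measured, with 3 higher, 5 lower and a median of -0.13. None passed the adjusted limma test and 1 had an unadjusted p under 0.05, beside 7.21% of all genes. This was Gzf1, which read 4.69, 5.95 and 5.52 in WT and 4.48, 4.11 and 4.19 in Tet1 KO. All Tet1 KO arrays were below all WT arrays, 1 of the 3 was above the control, and the difference was -1.13 (SE 0.32). Hic2 differed by -0.43 (SE 0.29) and Bcl6 by -0.33 (SE 0.34). Of 17 measured corepressor and ubiquitin ligase partners, all above the control on all arrays, 6 were higher and 11 lower, with a median of -0.04 and 0 at an unadjusted limma p under 0.05. Rcor1 at -0.22, Mta2 at -0.30 and Tbl1x at 0.24 had the smallest p-values. Without Tet1 KO replicate 2 Mta2 was at -0.02 and Tbl1x at -0.05, and by the mean of probe sets Rcor1 was at 0.03 and Tbl1x at -0.09.

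Of 20 genes reported as targets or partners of members, 13 were higher and 7 lower, with a median of 0.06. None passed the adjusted limma test, and 2, both higher, had an unadjusted p under 0.05. Of all genes 7.21% did, and 3.25% on the higher side. Cd8a, which ThPOK represses in helper T cells, read 5.14, 5.25 and 5.45 in WT and 5.57, 6.17 and 5.71 in Tet1 KO. The difference was 0.53 (SE 0.20), and averaging its probe sets gave 0.27. Csf3r, the receptor of G-CSF, which ZBTB46 represses in dendritic cells, differed by 0.38 (SE 0.16). Zbtb7b and Zbtb46 themselves differed by -0.005 and -0.15 with overlap, and a link to these targets was not tested. Hes1, a Notch target, differed by 0.35 (SE 0.15), with an unadjusted limma p of 0.060. Myc, the partner of MIZ1, differed by -0.38 (SE 0.20).

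Markers of mature cells were mostly on the higher side in Tet1 KO, with 0 past the adjusted limma test. Dim genes in general were on the higher side too. Among the higher markers, the WT mean was 8.78 for S100a8, whose groups overlapped, and 7.93 for Tfrc. By the mean of its probe sets Tfrc differed by 0.007. The part of level in the marker differences was not tested. Of T and NK cell markers, Cd8a differed by 0.53, Cd3g by 0.30 and Ncr1 by 0.25. Of 3 B cell markers, with a mean level of 4.49 to 4.77 in WT and 4.71 to 4.91 in Tet1 KO, Pax5 differed by 0.42, Cd79a by 0.22 and Ms4a1, at or below the control on all arrays, by -0.03. Of 4 granulocyte and monocyte markers, with 6.20 to 6.44 in WT and 6.67 to 6.82 in Tet1 KO, Itgam differed by -0.43, S100a8 by 0.48 and Ccr2 by 1.30, or 0.57 without Tet1 KO replicate 2. Of 3 erythroid markers, with 5.98 to 6.10 and 6.08 to 6.37, Tfrc differed by 0.30, Hba-a1, at or below the control, by 0.36 and Klf1 by -0.14. Of 3 dendritic cell markers, with 4.29 to 4.36 and 4.25 to 4.63, Itgax differed by 0.14, Siglech by 0.12 and Xcr1 by -0.004. Of 4 stroma markers, with 3.96 to 4.28 and 4.28 to 4.4, Col1a1 differed by 0.32, and Cdh5 and Pdgfra, at or below the control, by 0.24 and 0.20. The LSK markers, with 9.13 to 9.30 and 9.25 to 9.38, included Slamf1 at 0.78, Kit at -0.10 and Meis1 at 0.08. Without Tet1 KO replicate 2 Slamf1 was at 0.10, Kit at -0.02, Ncr1 at 0.01 and Cd8a at 0.35. Siglech was then at -0.14, Cd79a at 0.50, Klf1 at -0.56, the monocyte marker Csf1r at 1.32 and the LSK marker Flt3 at 0.58. Csf1r and Flt3 both read highest on Tet1 KO replicate 1, at 8.73 and 11.55. The part of these in the members' differences was not tested.

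Families that share a domain with Zbtb proteins are set beside them. Of 33 genes whose symbol starts with Klhl, which pair a BTB domain with kelch repeats, 13 were higher and 20 lower, with a median of -0.08 and 2, or 6.06%, at an unadjusted limma p under 0.05. Of 339 genes whose symbol starts with Zfp, 142 were higher and 197 lower, with a median of -0.08 and 27, or 7.96%. The Zbtb genes were at -0.05 and 7.69%, and the difference between families was not tested. Above the control on all 3 WT arrays were 78.8% of the Klhl genes and 81.7% of the Zfp genes, beside 94.9% of the Zbtb genes.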

How the data were processed

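RNA of LSK cells from 3 WT and 3 Tet1 KO samples was hybridized to Affymetrix arrays, 1 per sample, per the labels' protocols. The authors deposited log2 intensities for 45101 probe sets. Background correction, normalization and summarization are not given in the sources used here. Array medians lay within 0.0694, and the values were used as deposited. The number of arrays limits the precision. A platform annotation gave 1 symbol to 34958 probe sets, several to 932 and none to 9211, and 5 probe sets with several symbols that include a Zbtb symbol were left out. By gene identifier 34754 matched RefSeq genes of GRCm38.p6.

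Tet1 KO was compared with WT in limma 3.58.1 under R 4.3.3 (lmFit, eBayes, genotype as the term, two-sided) over 18194 genes with no filter on dim genes, and p-values were adjusted by Benjamini-Hochberg over all genes at 0.05. An exact permutation test of 3 against 3 cannot go below 0.1. Standard errors and intervals are those of the moderated fit. The fit was run on simulated data with the same spread in both groups and no outlying array. These arrays differ from that, so the run checks the calculation only. Genes in the same of 10 bins of mean level stood in for level-matched controls, as a description.

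Members and lists were chosen with earlier results of these data known. Described in full were members at an unadjusted p under 0.05, those without overlap and at least 0.5 apart, Zbtb4, Zbtb38 and members with roles in blood cells, with Tet1 and the 3 genes of smallest p from each gene list. Others named were chosen after their values were seen. Alternatives were other normalizations, level filters, the mean of probe sets, an intensity trend in eBayes, robust or not, weights per array, the replicate block and leaving out each array. Figures were drawn with matplotlib 3.10.9.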

Additional observations from a re-analysis of the deposited data

How the results depend on the processing

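The adjusted limma count of members was 0 under all settings run. The count at an unadjusted p under 0.05 lay between 1 and 5 with an array left out and between 2 and 4 otherwise. The count without overlap lay between 6 and 11 with an array left out, where smaller groups overlap less, and the median difference between -0.095 and 0.063. With array weights the median was 0.053. The count above the control in WT lay between 34 and 39. The samples of the 2 groups share replicate numbers, and the deviations of same-numbered samples correlated at 0.011, -0.0099 and 0.026. Differently numbered samples were not compared, so these values cannot settle whether the numbers pair the samples. With the replicate block 3 members (Zbtb2, Zbtb14 and Zbtb16), or 7.69%, had an unadjusted p under 0.05, beside 5.45% of all genes, and 0 an adjusted one.

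Of 388 member differences under other settings than leaving out an array, 17 in 10 members changed sign. With quantile normalization they were Zbtb7b at 0.041, Zbtb11os1 at 0.064 and Zbtb26 at 0.011. With cyclic loess they were Zbtb7b at 0.013, Zbtb11os1 at 0.093 and Zbtb44 at 0.038. With the mean of probe sets they were Zbtb7b at 0.099, Zbtb14 at -0.062, Zbtb20 at -0.061, Zbtb26 at 0.071, Zbtb37 at 0.022 and Zbtb49 at 0.18. With array weights they were Zbtb7b at 0.085, Zbtb8a at 0.18, Zbtb11os1 at 0.053, Zbtb26 at 0.061 and Zbtb46 at 0.067. Leaving out an array turned 14 members, with these ranges: Zbtb1 -0.13 to 1.55, Zbtb6 -0.68 to 0.078, Zbtb7b -0.094 to 0.16, Zbtb8a -0.16 to 0.24, Zbtb10 -0.70 to 0.026, Zbtb11 -0.033 to 0.35, Zbtb11os1 -0.33 to 0.13, Zbtb18 -0.092 to 0.33, Zbtb24 -0.84 to 0.022, Zbtb26 -0.26 to 0.10, Zbtb37 -0.68 to 0.41, Zbtb38 -0.54 to 0.11, Zbtb41 -0.65 to 0.074, Zbtb46 -0.40 to 0.11. The cause was not tested.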
